A study of Mus musculus with 12 samples.

Results

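*Gzma*, *Gzmb*, *Gzmc*, *Gzmk*, *Prf1*, *Srgn* and *Ctsw* encode granzymes, perforin and partner proteins of the cytotoxic granule. These 7 genes were taken by name from the 24439 gene names for which FPKM values were deposited in each of 12 libraries, and all 7 were among the 12442 genes tested. RNA-Seq was performed on mouse CD4 T-blast cells (TB), which are recently activated and dividing T cells. They were grown from CD4 T cells bound by CD4 microbeads from spleens of C42 mice. The labels give the background as C57BL/6, and the methods give a back-cross with C57BL/6J. Cells of these mice, in every group, carry a human DNA fragment with *IL3* and *CSF2*. No age or sex is given in the labels. All cells had 40 h in 2 µg/ml concanavalin A (ConA) and were then expanded in 50 U/ml IL-2. The groups were TB IL-2, in which the cytokine was kept, TB IL-2nil, which spent the last 16 h without it, and TB+ IL-2 and TB+ IL-2nil. Cells of the TB+ groups were cultured in the same way and then had 2 h of PMA at 20 ng/ml and calcium ionophore at 2 µM (PMA/I). Each group held 3 libraries. The labels do not say whether these came from separate mice or cultures, so P-values measure the spread between these samples only, which may be technical.

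A pair of libraries was placed otherwise than labelled. The study's own list of differentially expressed genes has a value for every library. To match it, the FPKM values were rescaled to a common sum per library and quantile-normalized, a scaling other than that of the main fit. The column of TB IL-2nil replicate 3 then held the values of the library labelled TB+ IL-2 replicate 3, and the reverse. In each of these columns 100% of 1381 genes matched, and at most 1.59% matched any other library. The other 10 columns matched the library of their own label to the same degree. Both libraries were therefore placed in each other's group here, and results for the 7 genes are also given with the groups as labelled and without these 2 libraries. Relative depth, read from the steps between low values, ranged over 3.05-fold and was lowest in TB IL-2nil replicate 2. Read counts were not analysed here, so values carry no counting interval, and for a zero only the listing itself is reported. Between 16.6% and 53.2% of the FPKM sum of a library fell on short non-coding RNA genes.

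Cytotoxic lymphocytes store granzymes, which are serine proteases, together with perforin in secretory granules and release them onto a target cell. Perforin forms pores in the target membrane through which granzymes reach the cytosol, and serglycin is the proteoglycan whose glycosaminoglycan chains hold these proteins inside the granule. The genes are best known from NK cells and CD8 T cells, and activated CD4 T cells can also express some of them. IL-2 signals through STAT5, and the paper names AP-1 beside STAT5 as inducible by IL-2. PMA/I bypasses the T cell receptor and activates AP-1 and NFAT.

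The members fall into few places in the genome (mm9, GENCODE M1 gene models). *Gzmb* (chromosome 14, 56877693 to 56881097, minus strand) and *Gzmc* (chromosome 14, 56850238 to 56853493, minus strand) lie 24.2 kb apart in the granzyme and mast cell protease cluster. The coding sequences of this pair are 76.01% identical, against 55.91% for *Gzmb* and *Gzma* and 57.98% for *Gzmb* and *Gzmk*. *Gzma* (chromosome 13, 113884033 to 113891187, minus strand) and *Gzmk* (chromosome 13, 113961816 to 114016116, minus strand) are 70.6 kb apart, and the *Gzmk* model overlaps *Esm1* on the other strand. *Prf1* (chromosome 10, 60760584 to 60767011, plus strand) and *Srgn* (chromosome 10, 61956581 to 61990199, minus strand) share a chromosome but are 1189.6 kb apart, and *Ctsw* is on chromosome 19 (5465240 to 5468498, minus strand). Of the 50-base words of the *Gzmc* transcript, 3.955% also occur in *Gzmd*, *Gzme* or *Gzmg*, so a small part of its reads may be shared with these copies, and the other members share none.

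The promoters of *Gzmb* and *Gzmc* are shown because this pair of neighbours moved together with IL-2. Sequences are from RefSeq, and the windows of 6 of the 7 members (7 windows, as *Srgn* has 2) were found once each in mm9. *Ctsw* was not in the table. The 250 bases before the start site are given 5′ to 3′ on the minus strand, at chr14:56881172-56881421 for *Gzmb* and chr14:56853495-56853744 for *Gzmc*, with an AP-1 motif in capitals. The third line is a stretch of 20 bases within the 50 bases after the *Gzmb* start site, with a STAT motif in capitals.
Gzmb promoter: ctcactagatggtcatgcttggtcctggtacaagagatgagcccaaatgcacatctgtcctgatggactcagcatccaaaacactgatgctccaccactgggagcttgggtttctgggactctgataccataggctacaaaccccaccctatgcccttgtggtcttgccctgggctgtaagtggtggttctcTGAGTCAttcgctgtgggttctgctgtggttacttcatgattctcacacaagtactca
Gzmc promoter: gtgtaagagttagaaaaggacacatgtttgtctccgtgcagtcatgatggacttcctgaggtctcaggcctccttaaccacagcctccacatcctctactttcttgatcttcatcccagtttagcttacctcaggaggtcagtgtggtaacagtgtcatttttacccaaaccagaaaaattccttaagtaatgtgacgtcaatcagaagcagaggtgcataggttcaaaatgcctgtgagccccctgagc
Gzmb after start: aggagttTTCATAGAAagca
The windows were searched from 250 bases before to 50 bases after the start on both strands for TTCNNNGAA (STAT) and TGANTCA (AP-1), which do not overlap each other. *Gzmb* held 1 match to each, TGAGTCA at position -58 and TTCATAGAA at position 38 from the RefSeq start, which itself is 74 bases from the nearest GENCODE start. The windows of *Gzmc* and of the other members held neither motif. Among 32544 mouse promoters of the same length, 8.327% held the STAT motif and 7.789% the AP-1 motif. A match is a description of letters and says nothing on binding.

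*Gzmb*, which encodes the aspartate-specific protease granzyme B, changed most with IL-2 among the 7 genes. Levels are given as TPM, the deposited FPKM values rescaled per library and brought to a common upper quartile, which are per length and can be compared between genes. In TB IL-2, *Gzmb* was at 389, 581 and 594 TPM in replicates 1, 2 and 3. In TB IL-2nil, the corresponding levels were 19.0, 1.95 and 11.96 TPM, and in TB+ IL-2 they were 401, 381 and 532 TPM. All IL-2 libraries were therefore far above all TB IL-2nil libraries, with or without PMA/I. In TB+ IL-2nil, *Gzmb* was at 33.5, 57.2 and 28.6 TPM, between the other groups and without overlap with any of them. Here and below, groups without overlap are a description of these libraries only, as the share of all genes separated in this way is not reported.

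The mean *Gzmb* level was 521 ± 115 TPM in TB IL-2 and 10.97 ± 8.57 TPM in TB IL-2nil (SD, n = 3). On the log2(TPM + 1) scale, where a change at a low level comes out smaller than it was, the difference was 5.81 (SE 0.56, adjusted P = 7.59e-05, limma with Benjamini-Hochberg adjustment), or 56.1-fold. It was the 4th largest increase among 12442 genes. Calls required more than a 3-fold difference and an adjusted P under 0.05, and by this rule 2 of the 7 members, *Gzmb* and *Gzmc*, were higher in TB IL-2 than in TB IL-2nil and 0 were lower. Of all genes tested, 4.69% were called higher and 2.73% lower in this comparison. With the groups as labelled, 0 members were called (1 at an unadjusted P under 0.05, against 11.5% of all genes). The *Gzmb* difference was then 4.02 (SE 1.71, adjusted P = 0.397). Without the 2 libraries this difference was 6.06 (SE 0.66, adjusted P = 0.000812). By replicate number, the ratio of TPM was 20.5 for replicates 1, 299 for replicates 2 and 49.7 for replicates 3, so its size varied widely, and the highest ratio came from the shallowest library of the series, TB IL-2nil replicate 2.

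*Gzmb* was also higher with IL-2 after PMA/I. Between TB+ IL-2 at 438 ± 82.1 TPM and TB+ IL-2nil at 39.8 ± 15.3 TPM (SD, n = 3), *Gzmb* differed by 3.48 (SE 0.56, adjusted P = 0.00205), or 11.1-fold, the 17th largest increase of all genes. In this comparison 2 of 7 members were again called higher and 0 lower, against 3.21% and 0.41% of all genes. With the groups as labelled the *Gzmb* difference was 1.69 (SE 1.71, adjusted P = 0.650). No member was then called (0 also at an unadjusted P under 0.05, against 17.5% of all genes). Without the 2 libraries the *Gzmb* difference was 3.33 (SE 0.66, adjusted P = 0.0174).

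PMA/I itself was followed by no change of *Gzmb* past the threshold where IL-2 was present, and by a rise from a low level where it was not. Between TB+ IL-2 and TB IL-2, the difference was -0.24 (95% confidence interval -1.48 to 0.999, adjusted P = 0.773), an interval that leaves room for change in both directions. It was -2.03 as labelled (adjusted P = 0.640) and -0.39 without the 2 libraries (adjusted P = 0.690). Between TB+ IL-2nil and TB IL-2nil, it was 2.09 (SE 0.56, adjusted P = 0.00751), or 4.27-fold. Whether this increase passed 3-fold depended on 1 library, since without TB IL-2nil replicate 2 it was 1.28 (adjusted P = 0.00781) and no longer more than 3-fold. With TPM not brought to a common upper quartile it was 1.55 (adjusted P = 0.0377). As labelled it was 0.31 (adjusted P = 0.912), and without the 2 libraries it was 2.34 (SE 0.66, adjusted P = 0.0146). Relative to the median of all genes, which in this comparison was -0.38 and without the common upper quartile -0.78, the *Gzmb* difference was 2.47 and 2.33. The *Gzmb* levels thus stood in the order TB IL-2, TB+ IL-2, TB+ IL-2nil and TB IL-2nil, in which the first 2 groups did not differ beyond their spread.

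The test of whether the effect of PMA/I on *Gzmb* differed with IL-2 gave -2.34 (SE 0.80, adjusted P = 0.118). With the interaction called at the adjusted P alone, 0 of the 7 members passed. *Gzmb* was the only member at an unadjusted P under 0.05, against 23.1% of all genes. Of all genes, 1.57% had an interaction above 0 and 2.66% below 0. No member passed with the groups as labelled or without the 2 libraries either, where the adjusted P of *Gzmb* was 0.914 and 0.182.

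*Gzmc*, the nearest neighbour of *Gzmb* and a granzyme of lower abundance, also followed IL-2, at a far lower level. It was at 8.16, 11.9 and 15.9 TPM in TB IL-2 and at 0.674, 1.96 and 1.17 TPM in TB IL-2nil. After PMA/I, it was at 10.7, 12.9 and 16.5 TPM with IL-2 and at 1.501, 3.57 and 2.39 TPM without. Every library with IL-2 was above every library without it, while PMA/I left the groups overlapping. By mean level the order was TB+ IL-2, TB IL-2, TB+ IL-2nil and TB IL-2nil, and neither pair that differed in PMA/I alone was separated beyond its spread. The difference between TB IL-2 and TB IL-2nil was 2.51 (SE 0.30, adjusted P = 0.000185), or 5.70-fold, and ranked 185th among the increases. Between TB+ IL-2 and TB+ IL-2nil it was 2.07 (SE 0.30, adjusted P = 0.00111), or 4.19-fold. As labelled, these differences were 1.51 (adjusted P = 0.543) and 1.06 (adjusted P = 0.561), and without the 2 libraries 2.49 (adjusted P = 0.00178) and 1.91 (adjusted P = 0.0133). With log2(TPM + 5) they were 1.42 and 1.29, both under 3-fold and not called, and on the scale of log2(FPKM + 1) with a common upper quartile 1.74, which was called, and 1.54, which was not. With PMA/I the difference was 0.17 in the presence of IL-2 (95% confidence interval -0.49 to 0.83, adjusted P = 0.695). It was 0.62 in its absence (SE 0.30, adjusted P = 0.0949), and passed an adjusted P of 0.05 with the replicate number as a block (adjusted P = 0.0160), with quantile normalization (1.16, adjusted P = 0.0104), and without TB IL-2nil replicate 2 (adjusted P = 0.0475) or TB+ IL-2nil replicate 1 (adjusted P = 0.0439), under 3-fold each time. The ratio of *Gzmb* to *Gzmc* was 44.6 ± 6.24 in TB IL-2, 33.1 ± 3.99 in TB+ IL-2, 13.1 ± 13.8 in TB IL-2nil and 16.8 ± 5.18 in TB+ IL-2nil (SD, n = 3).

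The remaining genes of the chromosome 14 cluster were near or at 0. *Gzmn*, *Mcpt1*, *Mcpt2*, *Mcpt4* and *Mcpt9* were listed at 0 in all 12 libraries, and *Gzmd*, *Gzme*, *Gzmf* and *Gzmg* did not exceed 0.189 FPKM in any library. Of the 6 other granzyme genes only *Gzmm*, which lies elsewhere and encodes the methionine-preferring granzyme M, was high enough to be tested, at means of 1.10 to 2.03 TPM, and it was not called in any comparison. Across the 10 granzyme genes, *Gzmb* made up 91.1 ± 6.82% of the summed TPM in TB IL-2, 89.4 ± 6.76% in TB+ IL-2, 70.1 ± 9.45% in TB+ IL-2nil and 34.7 ± 19.8% in TB IL-2nil (SD, n = 3). The sum itself was 568 ± 87.4 TPM in TB IL-2 and 27.4 ± 11.9 TPM in TB IL-2nil.

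*Gzma*, which encodes a granzyme that cleaves after basic residues, differed widely between the replicates of the IL-2 groups. In TB IL-2 it was at 66.9, 15.4 and 13.1 TPM, and in TB+ IL-2 at 76.8, 17.1 and 15.2 TPM, so replicate 1 was several times above the others in both. In TB IL-2nil it was at 8.38, 7.93 and 15.7 TPM and in TB+ IL-2nil at 7.43, 12.3 and 16.1 TPM, where replicate 1 was not high. The groups overlapped in all 4 comparisons, and no difference passed the test. The difference between TB IL-2 and TB IL-2nil was 1.16 (95% confidence interval -0.32 to 2.64, adjusted P = 0.191), and that between TB+ IL-2 and TB+ IL-2nil was 1.19 (95% confidence interval -0.29 to 2.67, adjusted P = 0.233). Without the 4 libraries numbered 1, a setting chosen after seeing the data, they were 0.31 (adjusted P = 0.468) and 0.19 (adjusted P = 0.737). As labelled they were 1.18 (adjusted P = 0.559) and 1.21 (adjusted P = 0.416), and without the 2 libraries 1.45 (adjusted P = 0.163) and 1.60 (adjusted P = 0.205). With PMA/I against without, the difference was 0.18 with IL-2 (adjusted P = 0.860) and 0.15 without (adjusted P = 0.863). By mean level the order was TB+ IL-2, TB IL-2, TB+ IL-2nil and TB IL-2nil. TB IL-2 was not compared with TB+ IL-2nil.

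The summed level of *Cd8a* and *Cd8b1*, markers of CD8 T cells, was also highest in replicate 1 of each group. It was 31.9, 6.91 and 7.18 TPM in TB IL-2 and 22.1, 14.0 and 17.7 TPM in TB IL-2nil. In TB+ IL-2 it was 29.5, 7.27 and 9.14 TPM, and in TB+ IL-2nil 22.0, 8.64 and 15.5 TPM. These markers were above 0 in every library, with *Cd8b1* the more abundant. In the IL-2 groups replicate 1 was highest for both the marker sum and *Gzma*, while replicates 2 and 3 stood in opposite order for them. In the groups without IL-2 replicate 1 had the highest marker sum and the lowest or a middle *Gzma* level. *Gzmb* was highest in replicate 1 in TB IL-2nil, and in replicate 2 or 3 in the other 3 groups. The part of CD8 T cells in the *Gzma* values was not tested, and in bulk samples fewer cells of a type and less RNA per cell cannot be told apart.

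**Figure D1:**
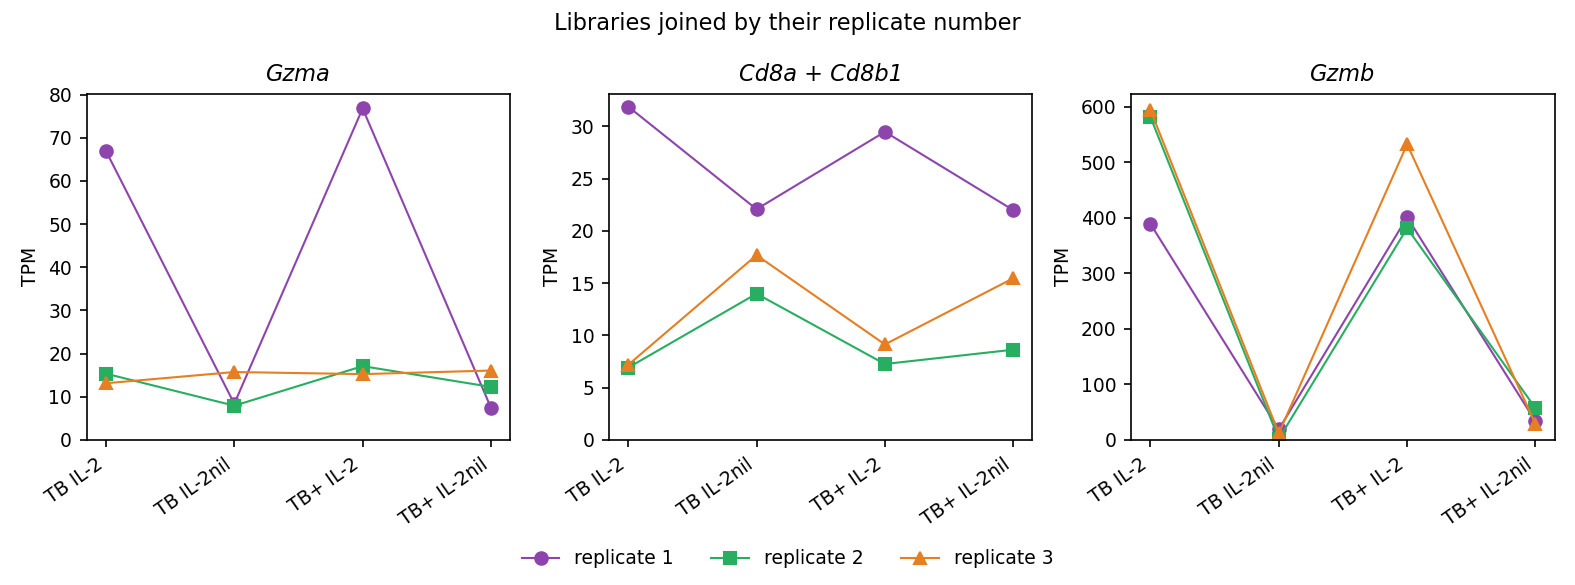
TPM of *Gzma* (left), the summed TPM of *Cd8a* and *Cd8b1* (centre) and TPM of *Gzmb* (right) in the 4 groups, with a point for each library and lines that join libraries of the same replicate number. Replicate 1 stands out for *Gzma* in both IL-2 groups (66.9 and 76.8 TPM) and for the CD8 markers in all 4 groups, whereas for *Gzmb* it is the highest library in TB IL-2nil only.

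*Gzmk*, the neighbour of *Gzma* with a similar cleavage preference, was close to the detection limit. It was at 3.11, 0.602 and 1.64 TPM in TB IL-2nil, at 0.716 and 0.256 TPM and listed at 0 in TB IL-2, at 0.531, 0.274 and 0.486 TPM in TB+ IL-2nil, and at 0.217 TPM and listed at 0 in the other two libraries of TB+ IL-2. TB IL-2nil held the highest value and overlapped with TB IL-2, while it did not overlap with TB+ IL-2nil. Before the common upper quartile was set, *Gzmk* exceeded 1 TPM in TB IL-2nil only, at up to 4.34 TPM. It reached at most 0.960 TPM elsewhere. The gene thus entered the fit through TB IL-2nil alone, so tests against that group cannot decide whether it differed. In these tests it was lower by an adjusted P alone in TB IL-2, with a difference of -1.004 (SE 0.30, adjusted P = 0.0223). It was also lower in TB+ IL-2nil, with -0.86 (SE 0.30, adjusted P = 0.0288). Neither was 3-fold on this scale, and by an adjusted P alone 22.3% and 41.1% of all genes were lower in these comparisons. By mean level TB IL-2nil stood first, followed by TB+ IL-2nil, TB IL-2 and TB+ IL-2. TB+ IL-2nil was not compared with TB IL-2, and TB+ IL-2 did not overlap with TB+ IL-2nil but did not differ past the threshold from it (-0.42, adjusted P = 0.356) or from TB IL-2 (-0.27, adjusted P = 0.514). The differences from TB IL-2nil both missed the threshold as labelled (adjusted P = 0.727 and 0.589), without the 2 libraries (adjusted P = 0.0697 and 0.0819) and with no filter on low values (adjusted P = 0.0739 and 0.0874). When single libraries were left out, the adjusted P ranged from 0.00485 to 0.0887 and from 0.00313 to 0.115. With log2(TPM + 0.1) the first difference was -2.36 (adjusted P = 0.0395) and was called, whereas the second missed the threshold (-1.61, adjusted P = 0.101). The second also missed it with log2(TPM + 5) (-0.31, adjusted P = 0.0504), with quantile normalization (adjusted P = 0.135) and without the libraries numbered 1 (adjusted P = 0.108), and the first without the common upper quartile (adjusted P = 0.0557).

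*Prf1*, the perforin gene, was barely expressed in any group. It was at 0.522, 0.429 and 0.281 TPM in TB IL-2 and at 0.0683, 1.19 and 1.45 TPM in TB IL-2nil. After PMA/I it was at 0.911, 0.527 and 0.768 TPM with IL-2 and at 0.514, 0.812 and 0.656 TPM without. The widest spread was in TB IL-2nil, and only TB+ IL-2 and TB IL-2 did not overlap. None of the differences passed the test in the placed groups, as labelled or without the 2 libraries, and the largest of the placed groups was -0.35 between TB IL-2 and TB IL-2nil (95% confidence interval -0.93 to 0.24, adjusted P = 0.322). Before the common upper quartile was set, *Prf1* exceeded 1 TPM in TB IL-2nil only. The gene thus entered the fit through that group alone, so tests against TB IL-2nil cannot decide whether *Prf1* differed. Without TB IL-2nil replicate 1, the lowest library, the difference between TB IL-2 and TB IL-2nil was -0.70 (adjusted P = 0.0115). That between TB+ IL-2nil and TB IL-2nil was then -0.47 (adjusted P = 0.0338), and both were under 3-fold. No conclusion is drawn from them, as the library left out was the lowest of the group that brought the gene in. In TB IL-2, where *Gzmb* had a mean above that of 98.1% of the genes tested, *Prf1* had a mean above that of 5.97%.

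*Srgn*, the core protein of serglycin, rose with PMA/I whether or not IL-2 was present. It was at 319.8, 411 and 335 TPM in TB IL-2 and at 429, 477 and 490.2 TPM in TB IL-2nil. After PMA/I it was at 2557, 2595 and 1841 TPM with IL-2 and at 4597, 4226 and 3211 TPM without. All 6 libraries with PMA/I were above all 6 without, and in each state the libraries without IL-2 were above those with it. As the share of all genes separated in this way is not reported, this is a description only. With IL-2, the increase after PMA/I was 2.70 (SE 0.19, adjusted P = 3.64e-06), or 6.51-fold, and *Srgn* was the 1 member of 7 called higher, with 0 lower, against 3.94% of all genes higher and 3.1% lower. Without IL-2, the increase was 3.09 (SE 0.19, adjusted P = 7.89e-07), or 8.52-fold, and *Srgn* and *Gzmb* were the 2 members called higher, with 0 lower, against 7.78% and 10.7% of all genes. As labelled, these increases were 2.07 (SE 0.67, adjusted P = 0.199) and 2.46 (SE 0.67, adjusted P = 0.0591), with 0 members called in each comparison. At an unadjusted P under 0.05 there was 1 member in each, against 14.0% and 32.3% of all genes. Without the 2 libraries the increases were 2.87 (SE 0.21, adjusted P = 3.02e-05) and 3.12 (SE 0.21, adjusted P = 1.26e-05). The interaction did not pass the test (-0.39, 95% confidence interval -0.99 to 0.21, adjusted P = 0.421).

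The lower *Srgn* level with IL-2 did not reach 3-fold. Between TB+ IL-2 and TB+ IL-2nil it was -0.78 (SE 0.19, adjusted P = 0.0156), or 1.72-fold lower, where 8.4% of all genes were lower by an adjusted P alone. It missed an adjusted P of 0.05 as labelled (adjusted P = 0.310), without the 2 libraries (adjusted P = 0.0901), without the common upper quartile (-0.39, adjusted P = 0.378), with quantile normalization (-0.55, adjusted P = 0.0565), without the libraries numbered 1 (-0.75, adjusted P = 0.0930), and without TB+ IL-2 replicate 3 (adjusted P = 0.0679) or TB+ IL-2nil replicate 1 (adjusted P = 0.0624). The mean levels stood in the order TB+ IL-2nil, TB+ IL-2, TB IL-2nil and TB IL-2. Between TB IL-2 and TB IL-2nil the difference was -0.40 (SE 0.19, adjusted P = 0.124), and with quantile normalization -0.80 (adjusted P = 0.00516). By mean level *Srgn* stood 323rd of 12442 genes in TB IL-2 and 33rd in TB+ IL-2nil, whereas *Gzmb* went from 236th in TB IL-2 to 7027th in TB IL-2nil.

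*Ctsw* encodes cathepsin W, a cysteine protease found mainly in NK and CD8 T cells. It was at 31.1, 37.4 and 41.3 TPM in TB IL-2 and at 37.5, 101 and 53.4 TPM in TB IL-2nil. After PMA/I it was at 20.4, 25.4 and 34.9 TPM with IL-2 and at 15.9, 34.5 and 44.5 TPM without. The groups overlapped in every comparison, and no difference was called. The mean was highest in TB IL-2nil, followed by TB IL-2, TB+ IL-2nil and TB+ IL-2. The nearest to the threshold was that between TB+ IL-2nil and TB IL-2nil, at -0.99 (SE 0.40, adjusted P = 0.0513), which passed an adjusted P of 0.05 with the replicate number as a block (adjusted P = 0.0107), without the common upper quartile (-1.52, adjusted P = 0.0107), with quantile normalization (-1.01, adjusted P = 0.0465), among genes above 5 TPM in at least 3 libraries (-1.10, adjusted P = 0.0309) and with a trend of variance on mean level (adjusted P = 0.0483), under 3-fold each time. When single libraries were left out, the adjusted P ranged from 0.02004 to 0.211 and passed without TB IL-2nil replicate 1 (-1.31) or TB+ IL-2nil replicate 3 (-1.29, adjusted P = 0.0228). It was -0.79 as labelled (adjusted P = 0.282) and -1.06 without the 2 libraries (adjusted P = 0.0843). Between TB IL-2 and TB IL-2nil it was -0.68 (95% confidence interval -1.56 to 0.21, adjusted P = 0.202).

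**Figure D2:**
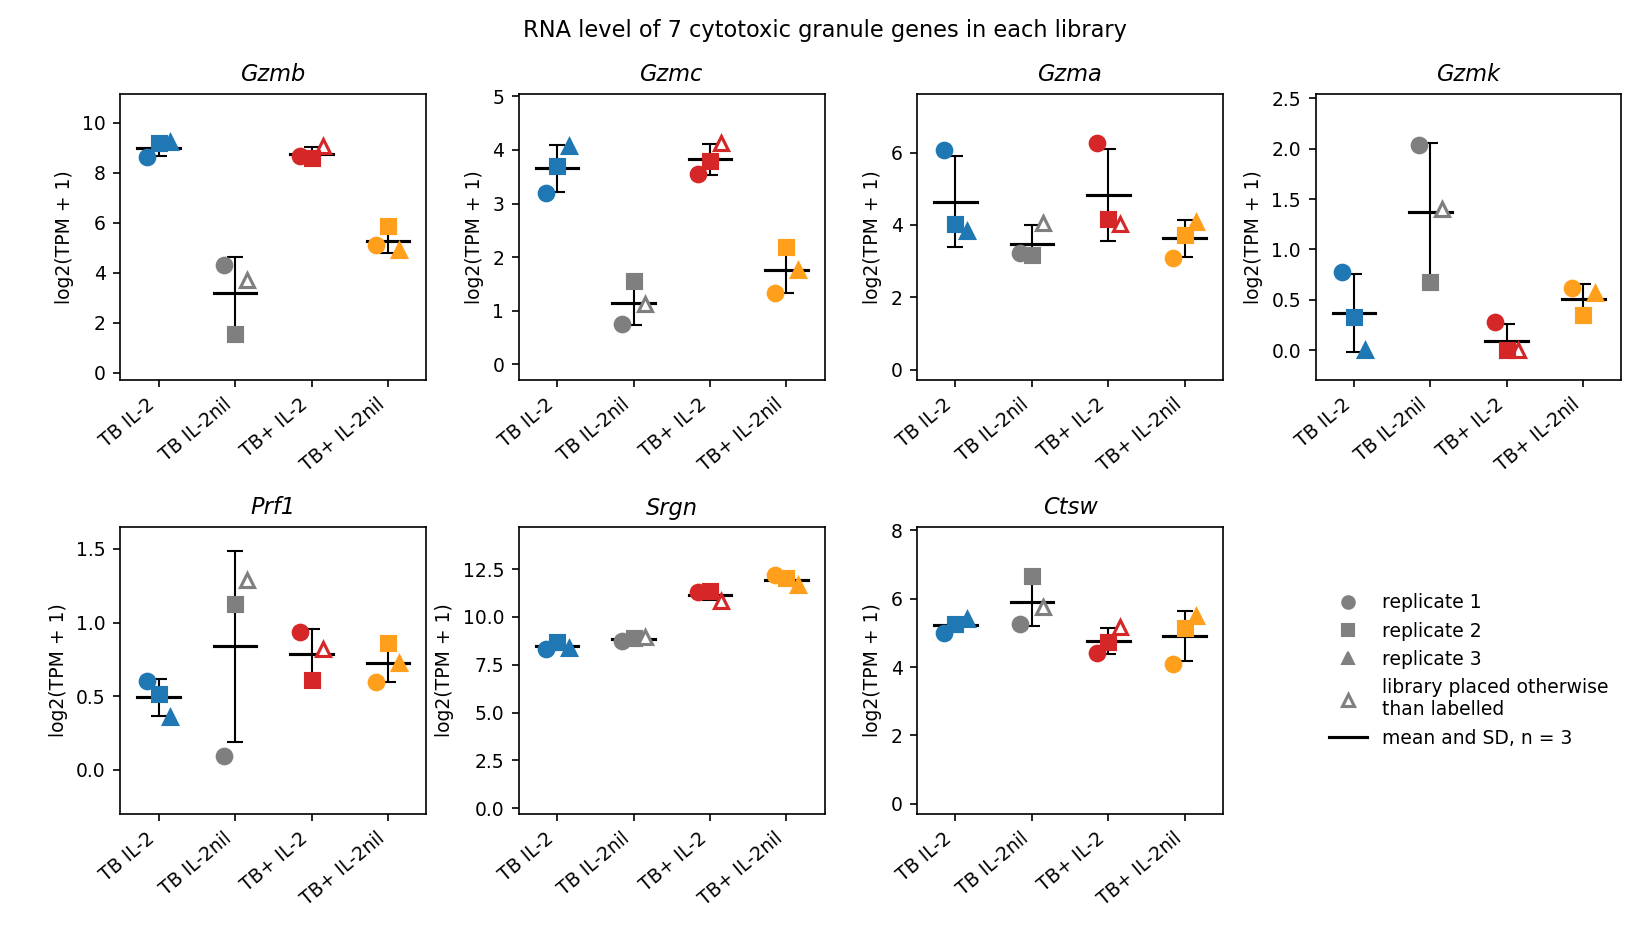
Level of each of the 7 genes in log2(TPM + 1) by group, with a point for each library (shape for the replicate number, open for the 2 libraries placed otherwise than labelled) and the mean and SD of 3 libraries in black. *Gzmb* and *Gzmc* are high in both IL-2 groups, *Srgn* in both PMA/I groups (1841 TPM or more in all 6 libraries), and *Gzmk* and *Prf1* do not exceed 3.11 and 1.45 TPM.

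**Figure D3:**
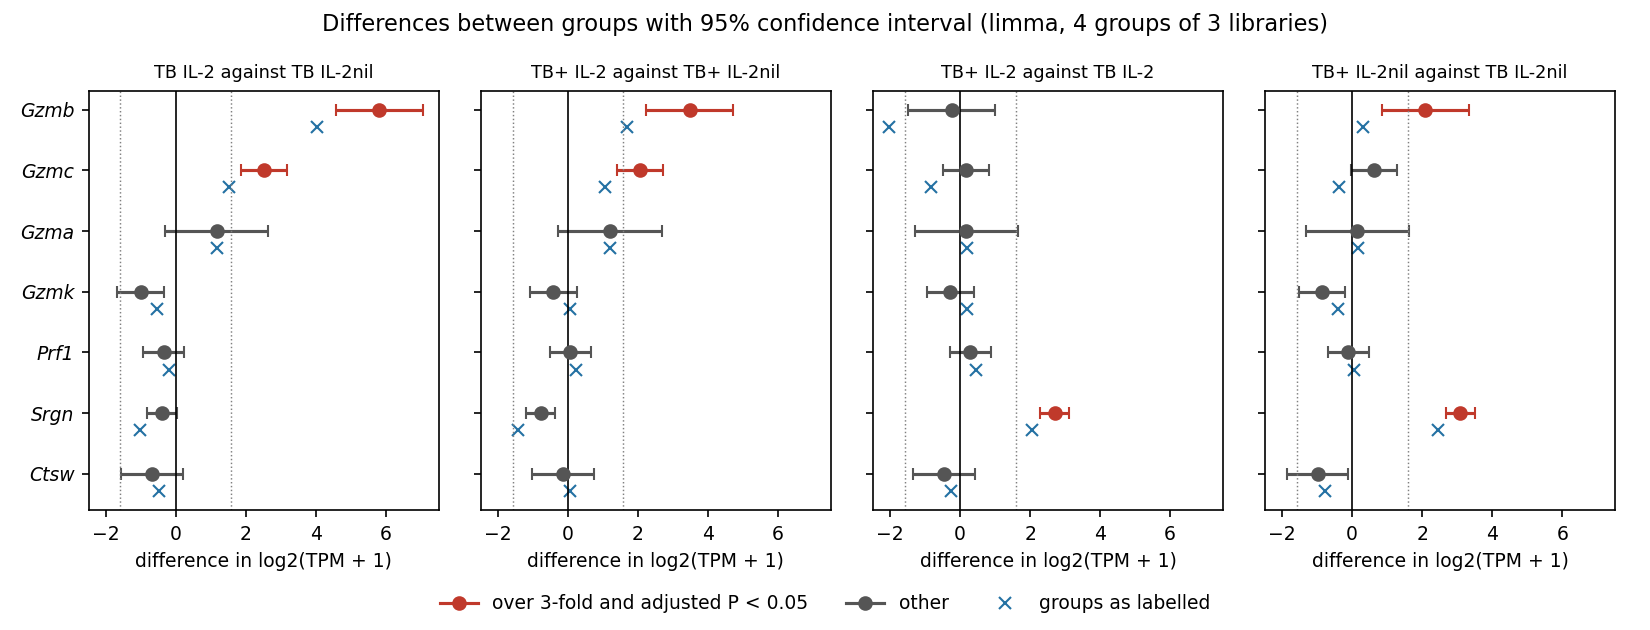
Difference in log2(TPM + 1) for the 7 genes in the 4 comparisons, with the 95% confidence interval of limma over 4 groups of 3 libraries. Red marks called differences, grey all others, dotted lines 3-fold, and crosses the same differences with the groups as labelled, where no member was called. *Gzmb* and *Gzmc* are red for IL-2 with and without PMA/I, *Srgn* for PMA/I with and without IL-2, and *Gzmb* also for PMA/I without IL-2.

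The make-up of the 7 transcripts differed by group. *Gzmb* was 54.0 ± 5.94% of their summed TPM in TB IL-2, 2.08 ± 1.75% in TB IL-2nil, 15.8 ± 5.20% in TB+ IL-2 and 0.968 ± 0.313% in TB+ IL-2nil (SD, n = 3). *Srgn* was 37.2 ± 3.17%, 84.0 ± 2.93%, 81.5 ± 5.34% and 97.8 ± 0.812% in the same order. For each *Srgn* transcript the ratio of *Gzmb* was 1.47 ± 0.282 in TB IL-2, 0.0243 ± 0.0201 in TB IL-2nil, 0.198 ± 0.0794 in TB+ IL-2 and 0.00991 ± 0.00324 in TB+ IL-2nil. TB IL-2 was thus the only group with more *Gzmb* than *Srgn* transcripts, in all 3 of its libraries (1.22 at the lowest). The summed TPM was 958 ± 126, 555 ± 50.5, 2846 ± 352 and 4098 ± 707.

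The genes whose levels were most like those of each member differed. These are correlations of log2(TPM + 1) over the same 12 libraries among 8798 genes with a mean of at least 5 TPM, are given as a description, and share the libraries and their depth. For *Gzmb* they were *Ndufa12* (Pearson r = 0.989), a subunit of respiratory complex I, *Bola3* (r = 0.982), a factor of mitochondrial iron-sulfur clusters, and *Usp14* (r = 0.978), a proteasome-bound deubiquitinase. For *Gzmc* they were *Tkt* (r = 0.996), the transketolase of the pentose phosphate pathway, *Hint1* (r = 0.989) and *Psmb2* (r = 0.986), a proteasome subunit. *Ndufa12* had means of 153 and 158 TPM with IL-2, and of 38.4 TPM in TB IL-2nil and 60.4 TPM in TB+ IL-2nil. For *Srgn* they were *Rgs16* (r = 0.992), *Chd1* (r = 0.992) and *Lcp2* (r = 0.992), the last encoding the adaptor SLP-76. For *Gzma* the highest was *Cdkn2a* (r = 0.851), for *Gzmk* *Slfn5* (r = 0.969), for *Ctsw* *Gstp3* (r = 0.958), and for *Prf1* only *Rps12* (r = 0.747).

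Other genes of the granule pathway were examined in 7 lists with 57 genes, of which 51 were tested. With IL-2 against without, 0 of the 51 were called in TB and 0 in TB+. At an unadjusted P under 0.05 there were 20 and 16, against 49.0% and 35.2% of all genes. The calls compare with 4.69% of all genes higher and 2.73% lower in TB and 3.21% and 0.41% in TB+, with medians of -0.20 and -0.15 against -0.13 and -0.04 for all genes. With PMA/I, 9 were called higher and 4 lower where IL-2 was present, and 11 higher and 6 lower where it was absent. Of all genes, 3.94% were higher and 3.1% lower in the first of these comparisons and 7.78% and 10.7% in the second. The medians of the 51 genes were 0.07 and -0.002 against -0.22 and -0.38 for all genes. As labelled, the 4 counts with PMA/I were 0 higher and 0 lower (14 at an unadjusted P under 0.05, against 14.0% of all genes), and 1 higher and 1 lower (24, against 32.3%). Of all 12442 genes, 21 were then higher and 23 lower, and 109 higher and 146 lower. Without the 2 libraries the list counts were 8 higher and 4 lower, and 11 higher and 5 lower, and TB IL-2 against TB IL-2nil gave 1 higher and 1 lower. Of 12360 genes then tested, the calls were 563 higher and 482 lower, 951 and 1358, and 610 and 391 in that order.

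Among 8 genes of granzyme and perforin processing, *Furin*, *M6pr* and *Ctsl* rose with PMA/I in both states, and the other 5 were not called. *Furin* encodes a proprotein convertase and went from 46.3 ± 21.8 TPM in TB IL-2 to 1041 ± 299.8 TPM in TB+ IL-2 (SD, n = 3), or 4.52 on the log2 scale (SE 0.33, adjusted P = 4.34e-06). *M6pr*, a mannose 6-phosphate receptor that carries enzymes to lysosomes, rose by 2.31 with IL-2 and by 3.16 without. *Ctsl*, the gene of cathepsin L, rose by 2.53 and 2.27 from levels of 0.631 and 1.78 TPM. Of 4 serpin genes, which include *Serpinb9*, the inhibitor of granzyme B, *Serpinb6b* alone was called, with 2.34 in TB+ IL-2 against TB IL-2 (SE 0.73, adjusted P = 0.0291).

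Of 16 genes of granule biogenesis and exocytosis that were tested, *Stx11*, a syntaxin of granule fusion, rose with PMA/I by 1.69 with IL-2 and by 2.41 without. *Unc13d*, the priming factor Munc13-4, and *Vamp8*, a vesicle SNARE, fell without IL-2, by 1.72 and 1.91. The other 13 were not called in any comparison. Of the 2 death ligands, *Fasl* rose from 12.9 ± 5.68 to 164 ± 32.1 TPM with IL-2 and from 19.2 ± 8.89 to 325 ± 71.2 TPM without (SD, n = 3), differences of 3.61 and 4.08 (SE 0.34 in both).

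Of 7 transcription factors tied to cytotoxic genes, *Tbx21* (T-bet) rose by 3.36 with IL-2 and by 4.70 without, and *Stat5a* by 1.63 and 2.05. *Runx3* fell by 1.96 and 2.01, from 79.5 to 19.7 TPM and from 87.2 to 21.0 TPM. *Jund*, an AP-1 gene, was called without IL-2 only, where it rose by 1.91. Of 13 genes that build the glycosaminoglycan chains of serglycin, *Chst11* rose by 3.09 and 3.10, whereas *Chst12*, which like *Chst11* encodes a chondroitin 4-O-sulfotransferase, fell by 3.28 and 3.12. *Xylt2* and *B4galt7*, which start the linker of the chain, fell in both states (by 2.19 and 2.55, and by 2.32 and 3.06), and *Chsy1* and *Chpf*, which extend it, rose by 3.60 and 2.23 without IL-2. That *Jund*, *Chsy1*, *Unc13d*, *Vamp8* and *Serpinb6b* passed in only 1 state does not show a difference between states, as none of the 5 passed the interaction without the replicate block. With the block, 3 of them did, *Chsy1* at -2.10 (adjusted P = 0.0106), *Jund* at -1.84 (adjusted P = 0.0237) and *Vamp8* at 1.18 (adjusted P = 0.0465).

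**Figure D4:**
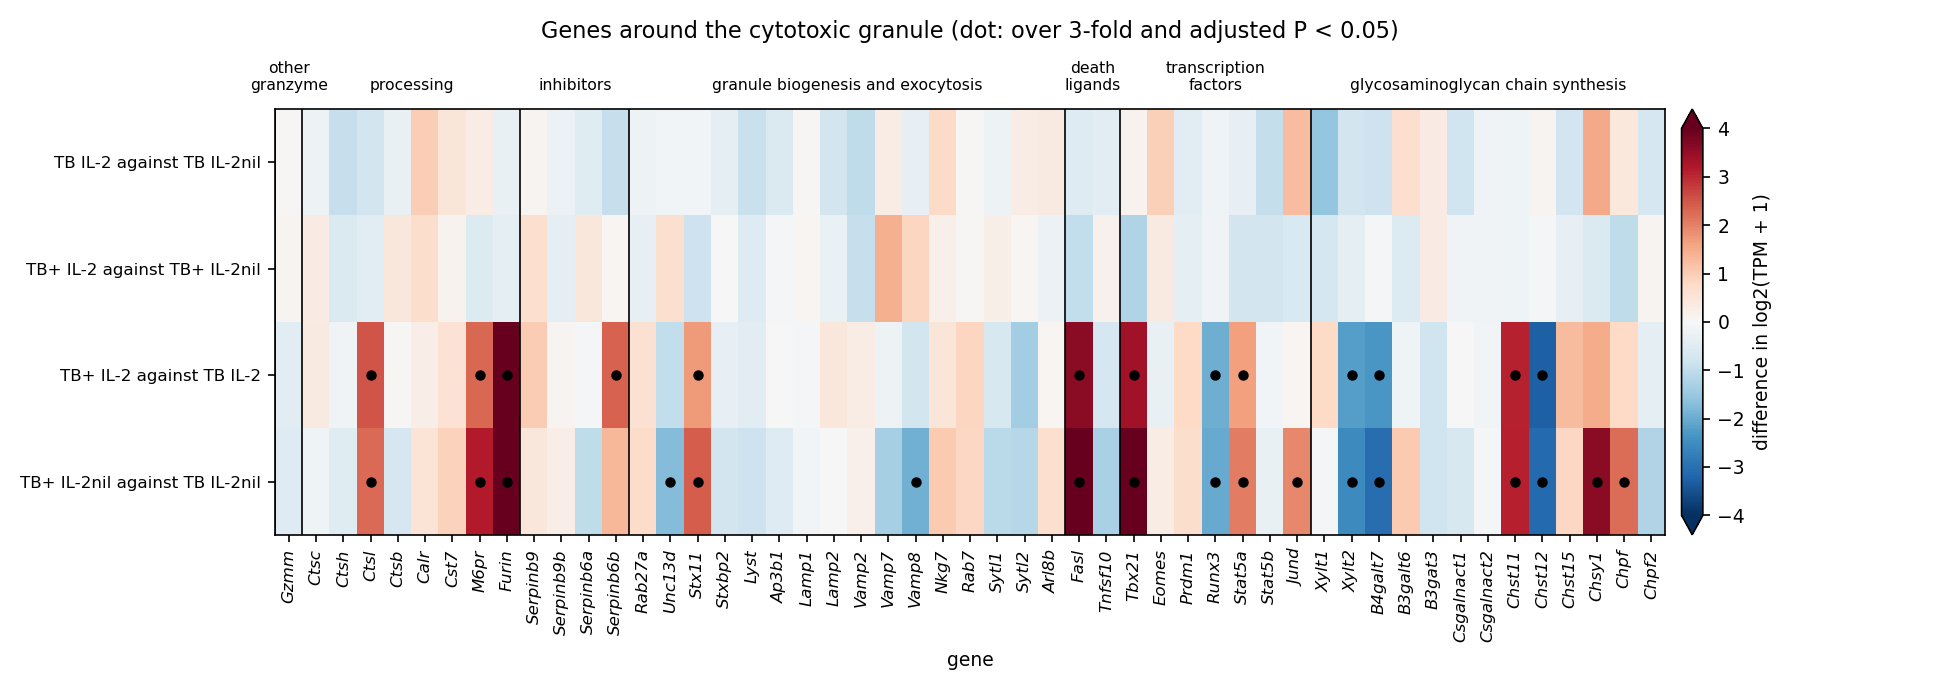
Difference in log2(TPM + 1) for the genes of 7 pathway lists that were tested (columns, grouped by list) in the 4 comparisons (rows), on a colour scale from -4 to 4 beyond which colours do not deepen. Dots mark called differences, of which there are 0 in the IL-2 rows and 13 and 17 in the PMA/I rows.

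Markers of the cell type and of other cells were given in the same libraries. The 7 CD4 T cell markers summed to 1832 to 2598 TPM in the 12 libraries, of which *Thy1* made up 322 to 892 TPM, and *Cd4* was at 100.2 to 371 TPM. These markers also moved with the groups, and *Cd4* had means of 134 TPM in TB IL-2, 333 TPM in TB IL-2nil, 115 TPM in TB+ IL-2 and 206 TPM in TB+ IL-2nil. Of the 7, 5 were lower in TB IL-2 than in TB IL-2nil by an adjusted P alone and 1 (*Thy1*, with means of 709 and 398 TPM) was higher, with 0 called. By an adjusted P alone, 22.3% of all genes were lower and 17.3% higher in this comparison. The NK cell genes *Ncr1*, *Klra4* and *Klra8* and the mast cell genes *Mcpt4* and *Tpsb2* were listed at 0 in every library, and the sums of the NK, mast cell and myeloid lists did not exceed 1.58, 5.16 and 4.88 TPM. The NK sum lay at 0 to 0.303 TPM without PMA/I and at 0.868 to 1.58 TPM with it, where *Klrc1* was the highest gene, at up to 1.53 TPM. B cell markers were higher without IL-2, at 23.2, 29.6 and 23.5 TPM in TB IL-2nil against 10.4, 10.4 and 5.94 TPM in TB IL-2, and *Cd79b* was called lower in TB IL-2 (-1.60, adjusted P = 0.00271), which is opposite to *Gzmb*. The regulatory T cell list summed to 31.4 to 68.7 TPM in TB IL-2 and to 4.66 to 17.1 TPM elsewhere, through *Lrrc32*, while *Foxp3* did not exceed 1.68 TPM. *Ikzf2*, another gene of this list, had means of 1.46 TPM in TB IL-2, 3.81 TPM in TB IL-2nil, 2.96 TPM in TB+ IL-2 and 5.53 TPM in TB+ IL-2nil. The part of these cells in the results was not tested. Of the gamma-delta T cell list, *Sox13* did not exceed 0.253 TPM and was listed at 0 in 5 libraries. The constant regions *Trdc* and *Tcrg-C1* of this list had no match among the gene names and were not analysed here.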

How the data were processed

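RNA-Seq had been performed on 12 libraries of CD4 T-blast cells from rRNA-depleted, directionally prepared total RNA. Per the labels and methods, the authors used Trimmomatic 0.32 for trimming, HISAT2 2.1.0 for alignment (mm9) and StringTie 1.3.3 for quantification over RefSeq models. The deposited values are FPKM for 24439 gene names per library. The methods name TPM, but the libraries sum to 193815 to 420487. For the time in IL-2 before withdrawal, the labels give 2 days and the methods 30 h.

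FPKM values were divided by their library sum to give TPM. Genes that exceeded 1 TPM in any library entered the fit, and the 75th percentile of all libraries was set equal. The log2(TPM + 1) values were fitted in limma 3.58.1 (R 4.3.3) over 4 groups with 8 residual degrees of freedom and no block, with Benjamini-Hochberg adjustment over 12442 genes, and the fit was tested on simulated data. All other steps used Python 3.11.15 with pandas 2.3.3. Members, lists and tests were chosen with earlier results of these data known. All 7 members were named in every comparison, and a list gene could be named where it was called. Libraries of the same replicate number, which comes from the labels, deviated together from their placed group means (18 correlations from 0.101 to 0.531), so a fit with the number as a block was made. As labelled, correlations were as low as -0.777. Alternatives were other scalings, pseudocounts and filters, a variance trend, and leaving out each library. Promoters are RefSeq windows of GRCm38.p6 matched to mm9.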

Additional observations from a re-analysis of the deposited data

Results flagged for a closer look

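No member had an interaction of IL-2 and PMA/I past the threshold. Among the list genes, 3 did, each with a smaller effect of PMA/I, or a more negative one, where IL-2 was present (limma, adjusted P). Of the 51 tested genes of the pathway lists, 0 passed above 0 and 2 below, against 1.57% and 2.66% of all genes. *B3galt6*, a galactosyltransferase of the glycosaminoglycan linker, had an interaction of -1.23 (adjusted P = 0.0433), with means of 6.73 and 5.59 TPM in TB IL-2 and TB+ IL-2 against 3.68 and 8.66 TPM in TB IL-2nil and TB+ IL-2nil. *Chpf*, a chondroitin polymerizing factor, had an interaction of -1.45 (adjusted P = 0.0179), with 14.9 and 26.1 TPM against 10.7 and 54.2 TPM. *Lrrc32*, a surface protein of regulatory T cells, had an interaction of -3.27 (adjusted P = 0.0266), with 47.1 and 9.68 TPM against 3.20 and 7.54 TPM. Without the 2 libraries placed otherwise than labelled, these interactions were -1.12 (adjusted P = 0.156), -1.50 (adjusted P = 0.0805) and -3.90 (adjusted P = 0.0583), and 0 genes of the pathway lists passed (11 at an unadjusted P under 0.05, against 17.9% of all genes). With the replicate number as a block, 2 of the 51 tested genes of these lists passed above 0 (*Vamp8* and *Chpf2*) and 5 below (*B3galt6*, *Chpf*, *Chsy1*, *Jund* and *M6pr*), against 0 and 2 without it. Of all 12442 genes, 760 passed above 0 and 718 below with the block, against 195 and 331 without it.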

How the results depend on the processing

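With the groups as labelled, 0 members were called in any comparison, also with the replicate number as a block. All genes called then numbered 12 (28 with the block) against 923 for TB IL-2 and TB IL-2nil, 44 (49) against 876 for TB+ IL-2 and TB IL-2, 255 (171) against 2296 for TB+ IL-2nil and TB IL-2nil, 15 (40) against 451 for TB+ IL-2 and TB+ IL-2nil, and 0 (0) against 526 for the interaction. In the placed groups, members called were 1 in place of 2 with log2(TPM + 5) for both comparisons of IL-2, with FPKM at a common upper quartile for TB+ IL-2 and TB+ IL-2nil, without the common upper quartile for TB+ IL-2nil and TB IL-2nil, and 1 to 2 there when single libraries were left out. With log2(TPM + 0.1), TB IL-2 against TB IL-2nil gave 2 members higher and 1 lower. The lower member was *Gzmk*, which entered the fit through TB IL-2nil alone. In the order of comparisons above, all genes called were 610, 553, 1483 and 287 with FPKM and 484, 439, 1212 and 210 with log2(TPM + 5), and from the second on 1470, 3472 and 691 with log2(TPM + 0.1). Without the common upper quartile, TB+ IL-2nil against TB IL-2nil gave 638 higher and 2539 lower, with quantile normalization 1138 and 810, and with FPKM 807 and 676, against 968 and 1328. TB+ IL-2 against TB IL-2 gave 537 and 231 with quantile normalization and 381 and 172 with FPKM, against 490 and 386. TB+ IL-2 against TB+ IL-2nil gave 624 and 14 without the common upper quartile, 572 and 119 with log2(TPM + 0.1), 193 and 17 with log2(TPM + 5), 259 and 28 with FPKM, 331 and 32 with no filter, and 418 and 94 without TB+ IL-2nil replicate 2, against 400 and 51. TB IL-2 against TB IL-2nil gave 743 and 577, 340 and 144, and 421 and 189 with log2(TPM + 0.1), log2(TPM + 5) and FPKM, against 583 and 340. For the interaction, the count was 4 without the 2 libraries, 1 without the common upper quartile, 241 with log2(TPM + 0.1), 842 with log2(TPM + 5), 107 with no filter, 1478 (760 above 0 and 718 below) with the replicate block, 13 without the libraries numbered 1, and 84 (without TB IL-2nil replicate 2) to 1302 (without TB+ IL-2nil replicate 3) when single libraries were left out, so it is the least settled of these results. In the placed groups the block changed no call of a member.

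Changes of sign were seen only for differences that did not pass the test in the fit of all 12 libraries in their placed groups, as described above. Those of *Gzmc* and *Prf1* between TB+ IL-2nil and TB IL-2nil passed an adjusted P of 0.05 in some other settings, given with these genes. For *Prf1* this comparison cannot decide whether the gene differed, as it entered the fit through TB IL-2nil alone. As labelled, with or without the block, TB+ IL-2 against TB IL-2 gave -0.83 for *Gzmc* and 0.19 for *Gzmk*, TB+ IL-2nil against TB IL-2nil gave -0.39 for *Gzmc* and 0.046 for *Prf1*, and TB+ IL-2 against TB+ IL-2nil gave 0.050 for *Gzmk* and 0.060 for *Ctsw*. Without the common upper quartile, *Gzma* was at -0.34 in TB+ IL-2nil against TB IL-2nil, *Ctsw* at 0.23 in TB+ IL-2 against TB+ IL-2nil, and the *Srgn* interaction at 0.089. With quantile normalization, the interactions of *Gzma* and *Srgn* were -0.38 and 0.25, and *Prf1* was at 0.21 in TB+ IL-2nil against TB IL-2nil, where it was 0.11 with log2(TPM + 0.1) and 0.11 without the 2 libraries. Without the libraries numbered 1, *Prf1* was at -0.074 in TB+ IL-2 against TB+ IL-2nil and the *Gzma* interaction at -0.12. When single libraries were left out, TB+ IL-2 against TB IL-2 ranged from -0.55 to 0.90 for *Gzma* and from -0.059 to 0.38 for *Gzmc*, TB+ IL-2nil against TB IL-2nil from -0.081 to 0.44 for *Gzma* and from -0.47 to 0.11 for *Prf1*, TB+ IL-2 against TB+ IL-2nil from -0.013 to 0.15 for *Prf1* and from -0.56 to 0.16 for *Ctsw*, and the *Gzma* interaction from -0.70 to 0.75. The cause of these changes was not tested. Leaving out short non-coding RNA genes raised all levels, to 749 TPM for *Gzmb* in TB IL-2.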
